A study of Homo sapiens with 12 samples.

Results

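The genes that load and switch on the replicative DNA helicase were followed in HCT116, a colorectal cancer cell line with intact p53, with and without the miR-34 family. They were *MCM2*, *MCM3*, *MCM4*, *MCM5*, *MCM6*, *MCM7*, *MCM10*, *CDC6*, *CDT1* and *CDC45*, which were picked by symbol as 10 of the 60580 genes listed in the count files. All 10 passed the filter on low counts, which 16123 genes passed. RNA of 4 groups was sequenced: *WT* cells and cells lacking the family (*miR-34a/b/c-KO*, here KO), each treated for 48 h with 5-FU at 4 µM or with DMSO, the solvent control. 5-FU is a pyrimidine analogue that disturbs thymidylate supply and RNA processing. The KO cells lack the regions of precursor miR-34a and miR-34b/c after CRISPR-Cas9 cutting on both sides, and the *WT* cells are clones that received the Cas9 plasmid without a guide. For each genotype 3 single-cell clones were made, and which clone or clones gave the RNA is not stated, so that genotype and clone cannot be told apart here. Each group had 3 biological replicates, but the file of *WT* 5-FU replicate 1 held the same count as *WT* DMSO replicate 3 for every gene (0 of 60580 differed). It was left out, and *WT* cells under 5-FU were therefore represented by replicates 2 and 3.

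Library totals ranged from 22831415 to 39064210 counts, and the 10 genes had between 568 (*CDC45*, *WT* 5-FU replicate 3) and 18093 (*MCM7*) counts in a library. *MIR34A*, *MIR34B* and *MIR34C* had 0 counts in all 11 libraries of either genotype, so they do not check the labels in this type of library. *MIR34AHG*, the host transcript outside the deleted part, was at 4.46 to 5.36 CPM (the counts as a part of the scaled library total) in *WT* and 21.9 to 22.5 CPM in KO cells under DMSO. The p53 target *CDKN1A* was at 166 to 168 CPM in *WT* and 453 to 488 CPM in KO cells under DMSO. Under 5-FU it was at 1977 to 2179 CPM in *WT* and 2431 to 2534 CPM in KO cells, which separates the treatments. The 5 epithelial markers *EPCAM*, *CDH1*, *KRT8*, *KRT18* and *KRT19* were all over 1 CPM in every library. Their sum was 5142 to 5532 CPM under DMSO and 8949 to 12010 CPM under 5-FU. Of the markers of other cell types, 1 of 7 for fibroblasts, 1 of 5 for leukocytes and 0 of 3 for endothelium exceeded 1 CPM in every library. Their summed levels were higher under 5-FU in both genotypes. For fibroblasts they were 21.1 to 26.3 (*WT*) and 45.6 to 50.1 CPM (KO) under DMSO and 49.9 to 59.7 and 73.6 to 75.3 CPM under 5-FU. For leukocytes they were 14.9 to 19.1 CPM under DMSO and 33.4 to 36.1 CPM under 5-FU. For endothelium they were 1.31 to 1.47 (*WT*) and 1.003 to 1.19 CPM (KO) under DMSO and 6.12 to 6.35 and 1.80 to 1.95 CPM under 5-FU. *COL1A2*, *PDGFRA*, *DCN*, *LUM*, *PTPRC*, *CD3E* and *CDH5* were at 0 in every library of at least 1 group, and the part of these transcripts in the results was not tested.

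MCM2 to MCM7 form the ring that unwinds DNA at the replication fork. In G1 phase the origin recognition complex, CDC6 and CDT1 load this ring onto origins in an inactive state, a step called licensing, and in S phase CDC45, the GINS complex and MCM10 help to turn it into an active helicase. The genes are textbook targets of the E2F factors and of the DREAM complex, the repressor that p53 brings into play through *CDKN1A*, and their mRNAs are widely used as markers of proliferating intestinal epithelium.

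The miR-34 family acts through the seed of its mature strand, bases 2 to 8, which pairs with sites in target mRNAs. The mature 5p strands of the deleted miR-34a and miR-34b, read from RefSeq (GRCh38.p14), are shown with the seed in capitals because the seed sets which sites a miRNA can pair with. The miR-34c 5p strand is named only.
hsa-miR-34a-5p: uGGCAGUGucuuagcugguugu
hsa-miR-34b-5p: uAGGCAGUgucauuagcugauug
The miR-34a seed pairs with CACTGCC, the only match searched. The 3′ UTRs of the canonical transcripts of the 10 genes (GENCODE 44) were searched for these letters. No 3′ UTR of the 10 held a match, against 2305 of 13131 tested protein-coding genes (17.6%). The absence of a match says only that these letters are not in the annotated 3′ UTRs.

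Promoters, 300 bases mostly upstream of the transcription start, were found in the RefSeq table (GRCh38.p14) for 8 of the 10 genes, the others being *MCM4* and *MCM5*. They were searched on both strands for the E2F words TTTCCCGC, TTTCGCGC, TTTGCCGC and TTTGGCGC, counting overlapping matches. At least 1 of these words was present in *MCM6* (4 matches), *MCM2*, *MCM3* and *MCM7* (2 each), *CDC6* and *CDT1* (1 each), against 3.31% of 34796 promoters and 4.72% of those of tested genes. A match describes the letters and not a working site. The 30 bases around the match nearest to the start are shown in the direction of the gene, with the words in capitals, because these words are rare among promoters and were present in 6 of the 8 searched.
MCM2 promoter: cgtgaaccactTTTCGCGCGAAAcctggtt
MCM3 promoter: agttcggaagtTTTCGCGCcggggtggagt
MCM6 promoter: ggtcaggTTTGGCGCGAAAtctccagctcc
MCM7 promoter: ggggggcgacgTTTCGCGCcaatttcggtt
CDC6 promoter: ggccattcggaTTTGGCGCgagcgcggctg
CDT1 promoter: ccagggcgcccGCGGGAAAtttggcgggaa
These lie at chr3:127598402-127598431 (plus strand), chr6:52284728-52284757 (minus), chr2:135876511-135876540 (minus), chr7:100101388-100101417 (minus), chr17:40287875-40287904 (plus) and chr16:88803743-88803772 (plus). In *CDT1* the word reads TTTCCCGC on the opposite strand. In *MCM2* and *MCM6* a pair of overlapping matches on opposite strands joins into 12 bases.

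In *CDC45* and *MCM10* none of the 4 words was present. After the sequences were seen, the related word TTTGGCGGG was added to the search. It occurred in *CDC6*, *CDT1*, *CDC45* and *MCM10*, and in none of the promoters of *MCM2*, *MCM3*, *MCM6* and *MCM7*, against 0.273% of 34796 promoters and 0.386% of those of tested genes. The 30 bases around it are shown for these 4 genes, with the word in capitals, as the windows it was read from. The word was picked from these promoters, so its presence in them is a description.
CDC6 second window: cgaggccgggcTTTGGCGGGaggtgggaac
CDT1 second window: cccgcgggaaaTTTGGCGGGaaccgcgccc
CDC45 window: aggagccgtgaTTTGGCGGGagtcttgacc
MCM10 window: ccggttggaatTTTGGCGGGttcagctgtg
They lie on the plus strand at chr17:40287840-40287869, chr16:88803751-88803780, chr22:19479884-19479913 and chr10:13161552-13161581. The word ended 17 to 20 bases before the start in *CDC6*, *CDT1* and *CDC45* and began 6 bases into the transcript in *MCM10*. CCAAT, another common promoter word, was present in *CDC45* (4 matches), *MCM3*, *MCM7* and *CDC6* (3 each), *MCM6* and *MCM10* (2 each), and in neither *MCM2* nor *CDT1*, against 34.6% of promoters.

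Treatment of *WT* cells with 5-FU lowered the mRNAs of all 10 genes. The helicase subunits fell to between 39.3 and 47.6% of their DMSO level, *CDC45* and *MCM10* to 51.8 and 50.3%, and the loaders *CDC6* and *CDT1* to 66.5 and 74.96% (edgeR quasi-likelihood test, FDR over 16123 genes). The call used here, as in the methods of the study, required FDR < 0.05 and a fold change over 1.5. By this call 9 of the 10 genes were lower, against 9.38% of all genes tested. With FDR < 0.05 alone 10 of 10 were lower, against 28.3% of all genes, and in 10 of 10 both 5-FU libraries lay under all DMSO libraries, against 32.3%. The median log2 fold change was −1.09 for the 10 genes and 0.03 for all genes. With 1 RUVg factor as a covariate, of which 98.2% of the variance lay between treatments, 0 of the 10 passed FDR < 0.05 after 5-FU in either genotype. Of all 16123 genes, that fit called 3 higher and 0 lower in *WT* cells, and 1 higher and 0 lower in KO cells. As its factor nearly followed the treatment, that fit cannot decide on changes after 5-FU. In bulk RNA, fewer cells in S phase and less RNA per cell cannot be told apart.

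*MCM6*, a core subunit of the ring, showed the largest fall. It was at 299, 300.3 and 280 CPM in the *WT* DMSO libraries and at 111 and 119 CPM under 5-FU. The groups were far apart, with a log2 fold change of −1.35 (SE 0.06, FDR 6.42e-12). *MCM2*, which carries a histone-binding tail, was at 268, 278 and 258 CPM under DMSO and at 117 and 105 CPM under 5-FU, a log2 fold change of −1.27 (SE 0.06, FDR 2.82e-11). *MCM4* was at 388, 397 and 379 CPM under DMSO and at 176 and 177 CPM under 5-FU, a log2 fold change of −1.14 (SE 0.05, FDR 3.14e-11). Neither gene had overlapping groups, and the pair of 5-FU libraries was tightest in *MCM4*. *MCM7* (−1.13), *MCM5* (−1.10) and *MCM3* (−1.07) fell by similar amounts, with standard errors of 0.06 to 0.07, so that the 95% intervals of *MCM3*, *MCM4*, *MCM5* and *MCM7* overlapped.

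*CDC6*, the ATPase that recruits the ring, was at 147, 162 and 142 CPM in *WT* cells under DMSO and at 103 and 97.1 CPM under 5-FU. Its log2 fold change of −0.59 (SE 0.06, FDR 3.56e-07) lay at the minimum fold change and went under it without *WT* DMSO replicate 2 (−0.53) or without *WT* 5-FU replicate 3 (−0.55). *CDT1*, the partner that brings the ring to the origin, was at 159, 171 and 158 CPM under DMSO and at 135 and 108 CPM under 5-FU. The 5-FU libraries of *CDT1* differed by more than those of any other member, relative to their mean. The log2 fold change was −0.42 (SE 0.08, FDR 1.64e-04), which missed the minimum fold change. It was −0.59 without *WT* 5-FU replicate 2, which passed, and −0.26 without *WT* 5-FU replicate 3. *CDC45*, the helicase cofactor, was at 39.6, 39.5 and 36.3 CPM under DMSO and at 20.3 and 19.5 CPM under 5-FU, a log2 fold change of −0.95 (SE 0.07, FDR 1.78e-08). *MCM10*, which acts when the helicase is switched on, was at 69.3, 71.2 and 68.9 CPM under DMSO and at 33.0 and 37.3 CPM under 5-FU, a log2 fold change of −0.99 (SE 0.07, FDR 2.01e-09).

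**Figure D1:**
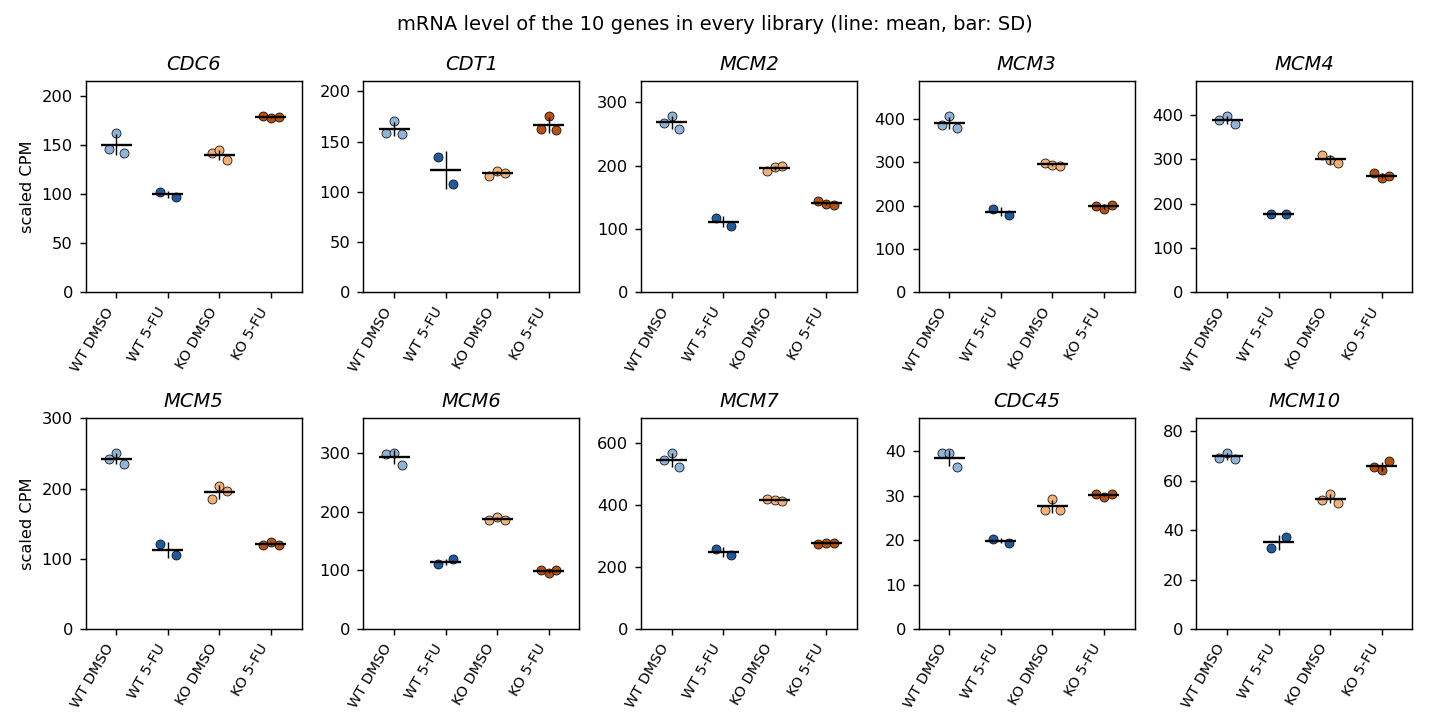
Level of each of the 10 mRNAs in scaled CPM (vertical axis from 0) in *WT* and KO cells under DMSO and 5-FU; points are libraries, horizontal lines means and vertical lines SD (n = 3, in *WT* 5-FU n = 2). The *WT* 5-FU libraries were the lowest of all for *CDC6*, *MCM2*, *MCM4*, *MCM7*, *CDC45* and *MCM10*, whereas *MCM6* was lowest in KO cells under 5-FU.

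After 5-FU the 10 genes moved in both directions in KO cells. The 6 ring subunits were lower, to between 52.4 and 87.8% of their DMSO level, while *CDC6*, *CDT1* and *MCM10* were higher, at 127, 141 and 125% of it. *CDC45*, at 109%, did not pass the test. By the call with the minimum fold change 3 genes, *MCM5*, *MCM6* and *MCM7*, were lower, against 12.0% of all genes, and 0 were higher, against 13.3%. With FDR < 0.05 alone 6 of 10 were lower, against 33.8% of all genes, and 3 of 10 were higher, against 26.6%. The 5-FU libraries lay under all DMSO libraries in 6 of 10, against 38.4% of all genes. The median log2 fold change was −0.34 for the 10 genes and −0.06 for all genes.

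*MCM6* also fell most in KO cells, from 186, 191 and 186 CPM under DMSO to 100.0, 95.3 and 100.1 CPM under 5-FU, with a log2 fold change of −0.93 (SE 0.05, FDR 1.01e-10). *MCM4* was at the other end of the ring subunits, with 310, 298 and 291 CPM under DMSO and 269, 258 and 262 CPM under 5-FU. Its groups did not overlap but were close, and the log2 fold change was −0.19 (SE 0.05, FDR 0.00218). *MCM2* was at 192, 197 and 199 CPM under DMSO and at 144, 140 and 138 CPM under 5-FU, a log2 fold change of −0.48 (SE 0.05, FDR 5.43e-07). *MCM5* (−0.69), *MCM7* (−0.59) and *MCM3* (−0.57) lay between *MCM6* and *MCM2*. The values of *MCM7* and *MCM3* were on either side of the minimum fold change and changed sides in some alternatives, *MCM7* without KO 5-FU replicate 1 (−0.58) or with TMM scaling (−0.55), and *MCM3* without KO 5-FU replicate 3 (−0.59).

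The loaders were higher after 5-FU in KO cells. With 1 RUVg factor *CDT1* was at −1.74 (edgeR FDR 0.289), and *CDC6* did not pass either. That factor nearly followed the treatment (98.2% of its variance), so this fit cannot decide on changes after 5-FU. *CDC6* was at 142, 145 and 135 CPM under DMSO and at 180, 178 and 179 CPM under 5-FU, a log2 fold change of 0.35 (SE 0.05, FDR 2.58e-05). *CDT1* was at 116, 121 and 119 CPM under DMSO and at 162, 175 and 162 CPM under 5-FU, a log2 fold change of 0.49 (SE 0.07, FDR 9.57e-06). Neither gene had a 5-FU library within the range of its DMSO libraries, and neither reached the minimum fold change. *MCM10* was at 52.2, 54.8 and 51.1 CPM under DMSO and at 65.4, 64.4 and 67.8 CPM under 5-FU, a log2 fold change of 0.32 (SE 0.06, FDR 1.37e-04). *CDC45* was at 26.9, 29.3 and 26.8 CPM under DMSO and at 30.5, 29.8 and 30.4 CPM under 5-FU. The groups of *CDC45* did not overlap, but the log2 fold change of 0.13 (95% interval −0.01 to 0.27, FDR 0.102) was not told apart from 0. With TMM scaling it was 0.17 (edgeR FDR 0.0323) and with DESeq2 0.18 (FDR 0.0318), and *CDC45* then passed FDR < 0.05 as higher.

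**Figure D2:**
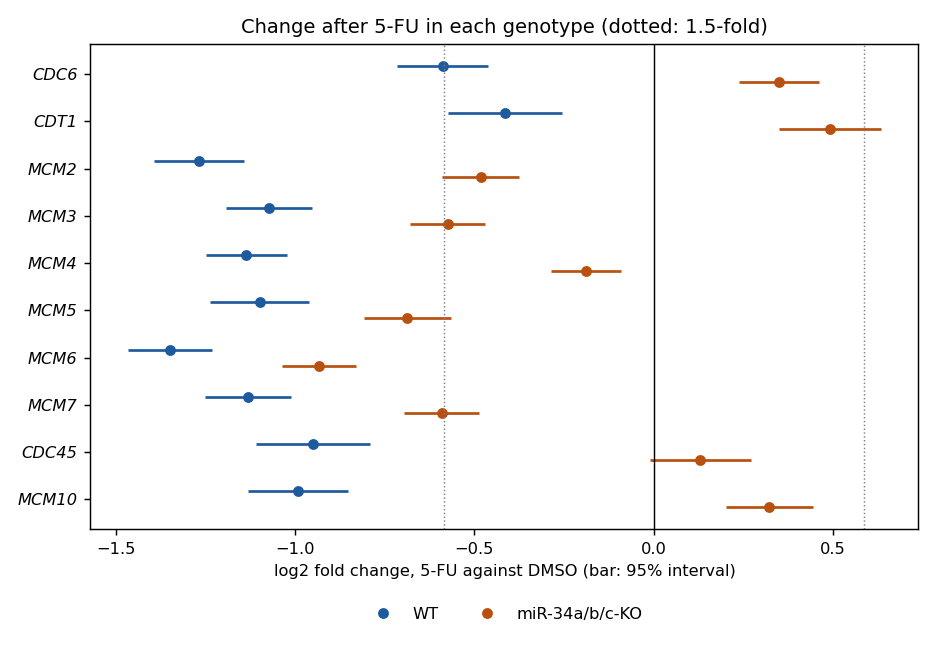
Log2 fold change after 5-FU against DMSO (horizontal axis) for each of the 10 genes in *WT* (blue) and KO cells (orange), with 95% intervals; dotted lines mark a 1.5-fold change. All *WT* values lie left of 0, the 6 ring subunits lie left of 0 in KO cells as well, and *CDC6*, *CDT1* and *MCM10* lie right of 0 in KO cells.

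Whether the response differed between genotypes was tested by the interaction term, the log2 fold change in KO minus that in *WT* cells. It was above 0 with FDR < 0.05 in 10 of 10 genes, against 10.1% of all genes, and exceeded 1.5-fold in 6, against 3.42%. With 1 RUVg factor 9 of 10 passed FDR < 0.05, and *MCM6* did not (0.26, edgeR FDR 0.138). With the minimum fold change that fit called 7 of 10 higher, against 419 of 16123 genes. Without that factor the median was 0.85 for the 10 genes and −0.09 for all genes. The largest difference was that of *MCM10* at 1.31 (SE 0.09, FDR 7.89e-08), followed by *CDC45* at 1.08 (SE 0.10, FDR 1.76e-06). *MCM4* (0.95, SE 0.07, FDR 2.11e-07), *CDC6* (0.94, SE 0.08, FDR 7.59e-07) and *CDT1* (0.91, SE 0.10, FDR 1.07e-05) were close to each other, with overlapping intervals. *MCM2* followed with 0.79 (SE 0.08, FDR 3.01e-06). The differences of *MCM7* (0.54), *MCM3* (0.50), *MCM6* (0.42) and *MCM5* (0.41) passed the test without reaching 1.5-fold, with FDR between 7.48e-05 and 0.00235. *MCM7* reached it with TMM scaling (0.60) and without *WT* 5-FU replicate 2 (0.61). Within the ring the 95% interval of *MCM4* (0.80 to 1.10) lay above those of *MCM3* (0.34 to 0.65), *MCM5* (0.23 to 0.59), *MCM6* (0.26 to 0.57) and *MCM7* (0.38 to 0.70), whereas it overlapped that of *MCM2* (0.62 to 0.95). The part of clone differences in these values was not tested.

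Under DMSO, loss of miR-34a/b/c was accompanied by lower mRNAs of 9 of the 10 genes. All but *CDC6* were at 64.1 to 80.7% of their *WT* level with FDR < 0.05, against 21.9% of all genes that were lower by this criterion, and in 9 of 10 every KO library lay under every *WT* library, against 27.4%. With 1 RUVg factor 4 of 10 were lower with FDR < 0.05, and 3 also passed the minimum fold change, against 645 of 16123 genes. Without that factor only *MCM6*, at 64.1%, passed the minimum fold change, which is 1 of 10 against 4.97% of all genes. The median log2 fold change was −0.40 for the 10 genes and 0.03 for all genes. *MCM6* had a log2 fold change of −0.64 (SE 0.05, FDR 2.33e-08), and its 95% interval (−0.74 to −0.54) lay below that of *MCM7* (−0.49 to −0.28), *MCM4* (−0.47 to −0.27), *MCM5* (−0.43 to −0.19) and *MCM3* (−0.51 to −0.30). *CDC45* (−0.48), *CDT1* (−0.46), *MCM2* (−0.45), *MCM10* (−0.41), *MCM3* (−0.40), *MCM7* (−0.39), *MCM4* (−0.37) and *MCM5* (−0.31) had FDR between 2.46e-06 and 2.85e-04. *CDC6* was the exception, with 135 to 145 CPM in KO and 142 to 162 CPM in *WT* cells, ranges that overlapped, and a log2 fold change of −0.10 (95% interval −0.21 to 0.01, FDR 0.145).

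Under 5-FU the order of the genotypes turned for most of the genes. KO libraries were above *WT* libraries for 7 of 10 with FDR < 0.05, against 21.6% of all genes (6 to 9 when 1 library was left out, 6 with RUVg or only the groups compared, 9 with DESeq2), and without overlap for the same 7 of 10, against 27.9%. *MCM10* (log2 fold change 0.91, SE 0.07, FDR 1.89e-08), *CDC6* (0.84, SE 0.06, FDR 1.66e-08) and *CDC45* (0.60, SE 0.08, FDR 7.21e-06) passed the minimum fold change, 3 of 10 against 7.58%. *MCM10* was thus at 188% and *CDC6* at 179% of the *WT* level. *CDC45* went under the minimum fold change without *WT* 5-FU replicate 3 (0.57). *MCM4* (0.58, FDR 2.46e-07), *CDT1* (0.45, FDR 1.28e-04), *MCM2* (0.34, FDR 1.67e-04) and *MCM7* (0.15, FDR 0.0294) were higher by less. *MCM7* no longer passed without *WT* 5-FU replicate 3 (0.0887, FDR 0.198) or KO 5-FU replicate 2 or 3 (FDR 0.0669 and 0.0707). *CDT1* passed the minimum without *WT* 5-FU replicate 2 (0.62) and was at 0.30 without *WT* 5-FU replicate 3, and *MCM4* passed it without KO 5-FU replicate 2 (0.59). *MCM3* (0.09, 95% interval −0.02 to 0.21) and *MCM5* (0.10, −0.03 to 0.24) overlapped between genotypes and did not pass. They passed with DESeq2 (FDR 0.0221 and 0.0433) and without *WT* 5-FU replicate 2 (0.16 and 0.21). *MCM6* alone stayed lower in KO cells, by a log2 fold change of −0.22 (SE 0.05, FDR 0.00260), and was 1 of 10 lower against 28.0% of all genes. The comparisons of this and the previous paragraphs share libraries, so their values are set side by side and do not support one another. The median log2 fold change under 5-FU was 0.39 for the 10 genes and −0.05 for all genes.

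**Figure D3:**
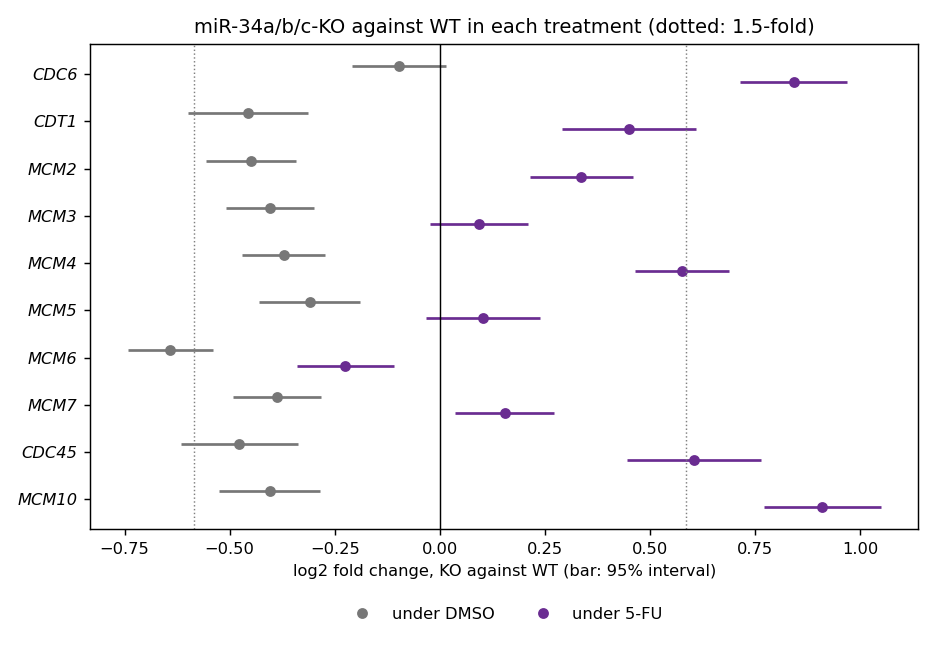
Log2 fold change of KO against *WT* cells (horizontal axis) for each of the 10 genes under DMSO (grey) and under 5-FU (purple), with 95% intervals; dotted lines mark a 1.5-fold change. Under DMSO all 10 values lie left of 0, with the interval of *CDC6* reaching across it, and under 5-FU 9 values lie right of 0 and *MCM6* lies left of it.

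To compare the genes with each other, counts were divided by the length of the merged exons of GENCODE 44 (RPKM, here CPM per kilobase). In *WT* cells under DMSO, *MCM7* (110.0 ± 4.54 RPKM, SD, n = 3) and *MCM3* (107 ± 3.79) were highest and had overlapping libraries. *MCM6* (70.9 ± 2.79), *CDT1* (58.9 ± 2.61) and *MCM2* (56.8 ± 2.06) followed, of which the last pair overlapped. *MCM4* (39.4 ± 0.898), *MCM5* (33.4 ± 1.11) and *CDC6* (28.3 ± 2.002) were lower, each apart from the next. *CDC45* (12.9 ± 0.621) and *MCM10* (12.8 ± 0.228) were lowest and overlapped. The order depended on the length: with the longest transcript of each gene *MCM7* was at 177 and *MCM3* at 122 RPKM, and *MCM2* (78.0) and *MCM4* (71.2) came above *CDT1* (61.0).

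The ring holds its 6 subunits in equal number, and the mRNA of each was expressed as a share of the RPKM of all 6. From *WT* cells under DMSO to KO cells under 5-FU, the share of *MCM6* went from 16.98% (16.8 to 17.3) to 11.5% (11.3 to 11.6). It was 14.7% in KO cells under DMSO and 15.002% (14.1 to 15.9) in *WT* cells under 5-FU. The share of *MCM4* was 9.43%, 9.83% and 9.64% in the first 3 of these groups (*WT* DMSO, KO DMSO and *WT* 5-FU) and 12.9% (12.8 to 13.1) in KO cells under 5-FU, apart from all other libraries. The shares of *MCM7* (26.4 to 27.2%), *MCM3* (25.6 to 27.4%), *MCM2* (12.7 to 14.4%) and *MCM5* (7.99 to 8.69%) moved by less between group means. With the longest transcript as length, the shares of *MCM6* were 13.5% and 8.95% and those of *MCM4* 12.3% and 16.5% in *WT* DMSO and KO 5-FU, the same directions. The shares are a description without a test, and 3 libraries against 3 could not give an exact permutation p under 0.05.

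**Figure D4:**
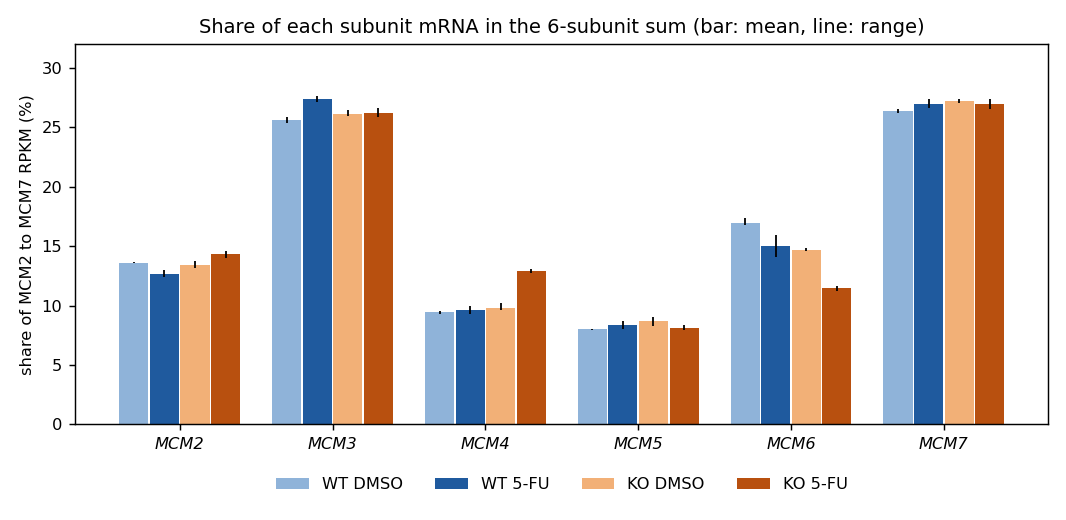
Share of each ring subunit in the summed RPKM of *MCM2* to *MCM7* (percent, vertical axis from 0) in the 4 groups; bars are means and vertical lines run from the lowest to the highest library (n = 3, in *WT* 5-FU n = 2). *MCM6* is at 16.98% in *WT* DMSO and at 11.5% in KO 5-FU, *MCM4* is at 12.9% in KO cells under 5-FU, and *MCM7* lies between 26.4 and 27.2%.

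Across the 11 libraries, the mean of the 10 genes (log2 CPM, centred per gene) was 0.41 to 0.51 in *WT* DMSO, 0.04 to 0.09 in KO DMSO, −0.16 to −0.15 in KO 5-FU and −0.58 to −0.50 in *WT* 5-FU. The 4 groups did not overlap, and *WT* cells held both the highest and the lowest libraries. Pearson's r with this mean was 0.985 for *MCM2* and *MCM4*, 0.954 for *MCM7*, 0.945 for *MCM3*, 0.929 for *MCM5*, 0.918 for *CDC45* and 0.872 for *MCM6*. It was lower for *MCM10* (0.761), *CDC6* (0.477) and *CDT1* (0.415). These values describe 11 libraries that fall into 4 groups, and each gene is part of the mean. Among 10354 genes with a mean of at least 10 CPM, the genes outside the 10 with the most similar pattern were *POLE3* (0.985), a small subunit of polymerase epsilon, *TMPO* (0.984), a protein of the nuclear lamina, *ORC6* (0.981), a subunit of the origin recognition complex, *CENPJ*, *REXO5*, *NSD2*, *KIF15*, *SIN3A*, *SLF1* and *WEE1* (0.981 to 0.976). With TMM scaling 7 of these 10 were again among the closest 10.

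Of the genes that work next to the 10, those of origin recognition and control of licensing were mixed. Of 9 tested, 5 were called lower after 5-FU in *WT* cells, against 9.38% of all genes, and 0 in KO cells, against 12.0%. A called difference was found in 3, all above 0, against 3.42% of all genes (median 0.26, all genes −0.09). *ORC1*, the largest subunit of the origin recognition complex, fell in *WT* cells (log2 fold change −1.02, FDR 6.17e-08), was at 0.11 in KO cells (FDR 0.202) and differed by 1.14 (FDR 4.39e-06). Unlike the 10 genes it was higher in KO cells under DMSO (0.48, FDR 6.60e-05). *GMNN*, which encodes geminin, the inhibitor of CDT1, was at −0.70 in *WT* (FDR 8.76e-07) and 0.39 in KO cells (FDR 1.37e-04), a difference of 1.09 (FDR 2.25e-06) that resembled that of *CDT1* in size. *ORC6* was at −1.03 in *WT* and −0.18 in KO cells, a difference of 0.85 (FDR 1.84e-05), and the KO value lost its FDR of 0.0267 in 4 of the fits with 1 library left out (FDR up to 0.109). The KO value of *ORC6* also did not pass with TMM scaling (edgeR FDR 0.0805), with DESeq2 (FDR 0.127) or without the filter on low counts (edgeR FDR 0.152). *ORC5* was the only gene of this list called lower in KO than in *WT* cells under 5-FU (−0.64, FDR 2.88e-05), and its responses differed by −0.12 (FDR 0.487). Without *WT* 5-FU replicate 3 *ORC5* missed the minimum fold change (−0.57).

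Genes of helicase activation, which work with *CDC45* and *MCM10*, also fell mainly in *WT* cells. Of 14 tested, 8 were called lower in *WT* cells, against 9.38% of all genes. In KO cells 1 was called lower, against 12.0%, and 1 higher, against 13.3%, which is not above those shares. A called difference above 0 was found in 10 (median 0.77), against 3.42% of all genes. The GINS subunits *GINS1* (difference 0.99, FDR 1.89e-06) and *GINS3* (1.07, FDR 1.07e-05) and the polymerase epsilon subunit *POLE2* (1.07, FDR 2.89e-04) fell in *WT* cells, by log2 fold changes of −0.88, −1.01 and −1.40. In KO cells *GINS1* (0.11, FDR 0.143) and *GINS3* (0.06, FDR 0.514) did not pass, as *CDC45* did not. Like *CDC45*, *GINS1* passed as higher with TMM scaling (0.15, edgeR FDR 0.0427) and with DESeq2 (0.16, FDR 0.0324). *POLE2* fell in KO cells (−0.32, FDR 0.0211), a value that did not pass without KO 5-FU replicate 3 (−0.22, FDR 0.116). With 1 RUVg factor the difference of *POLE2* did not pass (0.88, edgeR FDR 0.0736). *GINS4* departed from them, with 0.11 in *WT* (FDR 0.222) and a rise of 0.89 in KO cells (FDR 1.39e-08), a difference of 0.78 (FDR 5.71e-05).

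Among 23 genes of fork polymerases, clamp and processing, 9 were called lower and 1 higher in *WT* cells, against 1512 and 2978 of all 16123 genes. In KO cells 1 was lower and 2 higher, against 1932 and 2137 of all genes, which is not above those shares. Differences were called above 0 in 11 and below in 1 (median 0.57), against 551 and 1073 of all genes. *FEN1*, the flap endonuclease of lagging strand maturation, went from −0.92 in *WT* (FDR 1.31e-09) to 0.33 in KO cells (FDR 3.46e-05), a difference of 1.25 (FDR 4.30e-08). *POLA2*, a subunit of polymerase alpha, went from −0.44 (FDR 5.83e-04) to 0.66 (FDR 3.61e-06), a difference of 1.10 (FDR 1.16e-05). *PCNA*, the sliding clamp and also a p53 target, was higher after 5-FU in both genotypes (0.40, FDR 3.88e-06, and 1.29, FDR 8.55e-13), and the difference of 0.90 (FDR 2.44e-07) was of the size of that of *CDC6*. *POLD4*, the smallest subunit of polymerase delta, moved against the list, with a rise of 1.15 in *WT* (FDR 2.04e-08), 0.07 in KO cells (FDR 0.473) and a difference of −1.08 (FDR 1.79e-05). *POLD2* was lower in KO cells under both treatments (−0.51, FDR 2.44e-06, and −0.64, FDR 5.87e-07) without a detected difference between responses (−0.13, FDR 0.278, and −0.23, FDR 0.0219 without *WT* 5-FU replicate 3), and missed the minimum fold change under 5-FU without *WT* 5-FU replicate 2 (−0.53).

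All 4 genes of fork protection had a difference above 0 with FDR < 0.05, against 10.1% of all genes. Of these, 3 were past 1.5-fold, against 3.42% of all genes (median 0.81). *CLSPN*, the checkpoint mediator claspin, had the largest difference of all genes named here, 1.69 (FDR 1.23e-08), with −1.21 in *WT* and 0.48 in KO cells. *WDHD1* (0.97, FDR 2.73e-06) and *TIMELESS* (0.65, FDR 2.64e-05) followed. Of the MCM paralogs and partners outside the ring 3 of 4 were tested. A called difference above 0 was found in 2, against 3.42% of all genes (median 0.80). *MCM8*, which acts in homologous recombination, went from −0.62 to 0.46 (difference 1.08, FDR 4.20e-06), and its partner *HROB* from 0.37 to 1.17 (0.80, FDR 5.17e-04). *MCM8* missed the minimum fold change in *WT* cells without *WT* 5-FU replicate 2 (−0.53). With 1 RUVg factor the difference of *HROB* did not pass (0.75, edgeR FDR 0.0536). Of 7 genes for turnover of licensing proteins 2 had a called difference above 0, against 3.42% of all genes (median 0.08). *DTL*, the substrate receptor of the ligase that degrades CDT1 in S phase, went from −1.24 (FDR 3.43e-10) to 0.34 (FDR 1.46e-04), a difference of 1.58 (FDR 2.70e-08). *CCNF*, whose cyclin F protein targets CDC6, differed by 0.83 (FDR 5.91e-06), and *SKP2*, a receptor for phosphorylated CDT1, fell in both genotypes (−0.90 and −0.57) and differed by 0.33 (FDR 0.0262). Without *WT* 5-FU replicate 2 this difference was 0.22 (FDR 0.0920), and 4 other libraries left out also took it past 0.05. With 1 RUVg factor the difference of *SKP2* was 0.21 (edgeR FDR 0.480). All lists were written with knowledge of earlier results of these data, and their counts are descriptions.

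**Figure D5:**
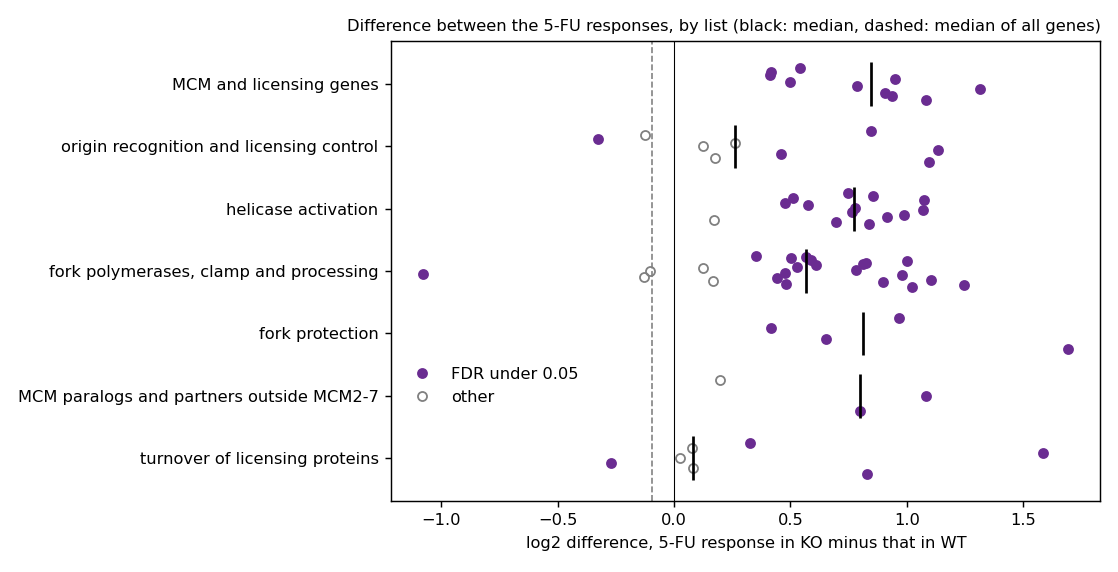
Difference between the 5-FU responses (log2 fold change in KO minus that in *WT* cells, horizontal axis) for the 10 genes and for 6 lists of other replication genes; filled points have FDR under 0.05, open points do not, black lines are list medians and the dashed line is the median of all genes (−0.09). The 10 genes (median 0.85), the genes of helicase activation (0.77) and of fork protection (0.81) lie right of 0, while the turnover list (0.08) is near it.

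The tested genes that carry the promoter words were counted, with the 10 genes left out. TTTGGCGGG had been picked from promoters of the 10 genes, and these counts are descriptions. Of 713 genes with an E2F word, 43.1% were lower after 5-FU in *WT* cells (FDR < 0.05), against 28.3% of all genes, and 20.5% had a difference above 0, against 10.1%. Of 57 genes with TTTGGCGGG these were 49.1% and 28.1%. After 5-FU in KO cells 47.4% of the 57 were lower and 21.1% higher, against 33.8% and 26.6% of all genes, with a median of −0.15, unlike *CDC6*, *CDT1* and *MCM10*. The median log2 fold change in *WT* cells was −0.14 for the E2F words and −0.30 for TTTGGCGGG, and that of the difference 0.01 and 0.04. The medians of the 10 genes, −1.09 and 0.85, were larger than those of either set.

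The 10 genes lie on 9 chromosomes (GRCh38, GENCODE 44), with *CDC45* (chr22:19479457-19520612, plus strand) and *MCM5* (chr22:35400134-35425431, plus) sharing one. The others are *MCM2* (chr3:127598410-127622436, plus), *MCM3* (chr6:52264014-52284881, minus), *MCM4* (chr8:47960185-47978160, plus), *MCM6* (chr2:135839626-135876443, minus), *MCM7* (chr7:100092233-100101940, minus), *CDC6* (chr17:40287879-40304657, plus), *CDT1* (chr16:88803789-88809258, plus) and *MCM10* (chr10:13161558-13211110, plus). For each of them the 20 tested genes on either side were used as a local background. In KO against *WT* cells under DMSO the medians of the 10 neighbourhoods ran from −0.14 to 0.13, and for the difference between responses from −0.19 to 0.01. *MCM6* and *CDC45* were lower under DMSO than 39 of their 40 neighbours. The others were lower than 24 (*CDC6*) to 36 (*MCM2*, *MCM3*, *MCM7* and *CDT1*) of theirs. For the difference between responses *MCM7*, *CDT1*, *CDC45* and *MCM10* were above all 40 of their neighbours, and the others above 35 (*MCM3*) to 39 (*MCM4* and *CDC6*).

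For 4 of the genes a tested gene starts on the opposite strand within 1000 bases of the GENCODE start. For *MCM7* and *CDC45* this start lies upstream of the RefSeq start used for the promoters. *PRKDC*, which encodes the DNA-PK catalytic subunit, starts 7 bases from *MCM4*. It was lower in KO cells under DMSO by nearly the same amount as *MCM4* (log2 fold change −0.36, FDR 1.68e-04, beside −0.37). After 5-FU, however, *PRKDC* was at −0.35 in *WT* and −0.19 in KO cells, and its difference of 0.16 (FDR 0.214) did not pass, beside 0.95 for *MCM4*. *UFD1*, 255 bases from *CDC45*, rose after 5-FU in both genotypes (0.55 and 0.54, difference −0.01, FDR 0.951). *TPRA1*, 143 bases from *MCM2*, had a difference of −0.20 (FDR 0.325), and *AP4M1*, 391 bases from *MCM7*, one of −0.25 (FDR 0.0994). Whether counting used the strand is not stated. *AP4M1* shares 392 bases with *MCM7* and was at 15.3 to 21.8 CPM, beside 238 to 569 CPM for *MCM7*, which also contains *MIR25*, *MIR93* and *MIR106B* in its introns. Long noncoding genes lie opposite *MCM2* and *CDC45* over 2331 and 41 bases.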

How the data were processed

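RNA of HCT116 cells was isolated by the authors with a column kit including DNase digestion, and random-primed libraries were sequenced paired-end on a NovaSeq. Per the methods of the study, CLC Genomics Workbench aligned the reads to GRCh38 and assigned them to ENSEMBL genes, whose release and use of strand are not given in the sources used here. The deposited values are whole-number counts per gene symbol, without filter or normalization. The column headers of *WT* 5-FU replicates 2 and 3 number them 1 and 2, and groups and replicates were taken from the sample titles. The library labelled *WT* 5-FU replicate 1 was left out as identical to *WT* DMSO replicate 3. That replicates are separate cultures is stated only as "biological replicates", and the p-values measure the spread between these libraries.

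A gene was tested if any library reached 20 counts (16123 genes). Upper-quartile factors (0.955 to 1.05) set the scale, and 1 model of all 4 group means was fitted with the quasi-likelihood functions of edgeR 4.0.16 (R 4.3.3), with two-sided tests. The authors tested differential expression with DESeq2 after RUVg, and the interaction of genotype and treatment with edgeR. The control genes of their RUVg step are not stated, so the RUVg fit here need not match it. FDR is the Benjamini-Hochberg value over all genes tested, and a call needs FDR < 0.05 and a fold change over 1.5. The steps were tested on simulated data. CPM use scaled totals, and log2 CPM a prior count of 2. With 11 libraries and 7 residual degrees of freedom the biological coefficient of variation, the square root of the common dispersion, was 6.72%. Intervals of fold changes are 95% intervals from the fit.

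Named were all 10 genes, in each other list the 3 genes with the largest difference at FDR < 0.05 and any called against the majority of the 10 genes, and the 10 most similar genes. The members and lists were chosen with earlier results of these data known. The word TTTGGCGGG and the block by column headers were added after seeing the data. Alternatives were TMM, DESeq2 1.42.0, other filters, other fold thresholds, 1 RUVg factor, a replicate block, fits of only the groups compared, the identical library as labelled, each library left out, and another gene length. Sequences and promoters were read from RefSeq (GRCh38.p14) and GENCODE 44. Seed matches within coding sequence are not reported here.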

Additional observations from a re-analysis of the deposited data

Results flagged for a closer look

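The difference between the 5-FU responses of *miR-34a/b/c-KO* and *WT* cells was tested by the interaction term of edgeR, and it passed FDR < 0.05 for all 10 genes. The log2 differences were 0.79 for *MCM2*, 0.50 for *MCM3*, 0.95 for *MCM4*, 0.41 for *MCM5*, 0.42 for *MCM6*, 0.54 for *MCM7*, 0.94 for *CDC6*, 0.91 for *CDT1*, 1.08 for *CDC45* and 1.31 for *MCM10*.

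Of the other replication genes named, those with the same sign were *ORC1* (1.14), *GMNN* (1.09), *ORC6* (0.85), *GINS1* (0.99), *GINS3* (1.07), *GINS4* (0.78), *POLE2* (1.07), *FEN1* (1.25), *POLA2* (1.10), *PCNA* (0.90), *CLSPN* (1.69), *WDHD1* (0.97), *TIMELESS* (0.65), *MCM8* (1.08), *HROB* (0.80), *DTL* (1.58), *CCNF* (0.83) and *SKP2* (0.33), of which *SKP2* did not pass in 5 of the fits with 1 library left out (FDR up to 0.0920). *POLD4* (−1.08) had the opposite sign. *ORC5* and *POLD2*, also named, did not pass this test. With 1 RUVg factor the differences of *MCM6* (edgeR FDR 0.138), *HROB* (0.0536), *POLE2* (0.0736) and *SKP2* (0.480) did not pass.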

How the results depend on the processing

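The counts of the 10 genes called were 1 lower (KO against *WT*, DMSO), 9 lower (5-FU in *WT*), 3 lower and 0 higher (5-FU in KO), 3 higher (KO against *WT*, 5-FU) and 6 higher (difference between responses). The matching counts over all genes were 802, 1512, 1932 and 2137, 1222 and 551. Without the minimum fold change the 10 genes gave 9, 10, 6 and 3, 7 and 10. All genes then gave 3529, 4569, 5451 and 4286, 3483 and 1622. With that minimum inside the test the 10 genes gave 0, 8, 1 and 0, 2 and 5. All genes then gave 327, 740, 875 and 1372, 478 and 135. With 1 RUVg factor, of which 98.2% of the variance lay between treatments, the 10 genes gave 3, 0, 0 and 0, 4 and 7. In that fit all genes gave 645, 0, 0 and 1, 1230 and 419. There, after 5-FU, *MCM6* (0.00185 in *WT* and 0.26 in KO cells), *MCM10* (0.64 in *WT*), *CDT1* (−1.74 in KO) and *MCM4* (0.48 in KO) changed sign, as did *CLSPN* (0.0692), *WDHD1* (1.16), *GINS3* (1.16), *POLE2* (0.27), *ORC5* (1.93), *ORC6* (0.39), *DTL* (0.23) and *SKP2* (0.18) in *WT* cells, and *POLE2* (1.15), *ORC1* (−1.47), *ORC5* (1.53), *ORC6* (1.07), *GMNN* (−0.12), *CCNF* (−1.49) and *SKP2* (0.39) in KO cells. None of these values passed FDR < 0.05, and a fit whose factor nearly follows the treatment cannot decide on their direction. With the identical library used as labelled, the 10 genes gave 0, 0, 3 and 0, 1 and 2. In that fit all genes gave 619, 0, 1783 and 1822, 1120 and 185. For the 10 genes, leaving out each library in turn gave 1, 8 to 10, 2 to 4 and 0, 2 to 4 and 6 to 7. TMM gave 1, 9, 2 and 0, 4 and 7 of the 10 genes, and so did DESeq2. Over all genes TMM gave 858, 1598, 1684 and 2337, 1371 and 676, and DESeq2 839, 1612, 1568 and 2296, 1339 and 703.

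The deviations of same-numbered libraries from their group means were correlated with r of −0.27 to 0.38 (15 pairs, 6 over 0.1). Such deviations cancel within each group, so these values cannot decide whether the numbers pair the libraries. The fit with a replicate block gave 1, 9, 3 and 0, 3 and 6. With the block numbered by the column headers, 4 genes were called for KO against *WT* under 5-FU.

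Depth does not limit the 10 genes, which had at least 568 counts, but *WT* 5-FU rests on 2 libraries.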
